A study of Homo sapiens with 4 samples.

Results

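The human silencing hub (HUSH) complex and its SETDB1 partners were followed through 9 genes. HUSH is represented by TASOR, MPHOSPH8 and PPHLN1, the alternative complex HUSH2 by TASOR2, and the H3K9 methylation arm by SETDB1, SETDB2, ATF7IP, ATF7IP2 and TRIM28. The genes were chosen by symbol, and each matched 1 row among the 28775 promoter rows of the study. All 9 passed the filter on low counts, which kept 27647 promoters.

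HUSH silences newly integrated retroviruses, LINE-1 elements and other long, intron-poor transcription units. TASOR holds the complex together, MPHOSPH8 (MPP8) reads histone H3 trimethylated at lysine 9 (H3K9me3) through its chromodomain, and PPHLN1 (periphilin) binds RNA. SETDB1 writes H3K9me3 and is stabilised in the nucleus by ATF7IP, while TRIM28 (KAP1) brings SETDB1 to sites marked by KRAB zinc finger proteins. MORC2 is the ATPase that works beside HUSH.

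ATAC-seq reads chromatin accessibility from where Tn5 transposase can insert adapters into DNA, and it was run on HEK293T cells, a human embryonic kidney line. There were 2 WT libraries, described as wild-type with no guide, and 2 MORC2 KO libraries, labelled MORC2 knock-out. KO replicate 1 was made with sgRNA 1 and KO replicate 2 with sgRNA 2, and WT replicates 1 and 2 are called the first and the second WT library. The KO lines were bulk pools of edited cells rather than clones, so guide and replicate cannot be told apart, nor can the share of edited cells and the change in each. No treatment, time point or other allele is given for either group.

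Nuclear promoter counts ranged from 6119609 to 12036024 per library, KO replicate 2 being the deepest. Mitochondrial rows took 31.8% of all counts with sgRNA 1 and 20.6% with sgRNA 2, beside 34.5% and 35.1% in the WT libraries, so that the groups did not overlap and KO replicate 2 stood apart. Its TMM factor was 1.13, against 0.956 to 0.970 in the other libraries. With mitochondrial rows left out, the 3 members called below were called again, with log2 fold changes of 0.44 for TASOR, 0.26 for PPHLN1 and 0.22 for SETDB2. Leaving out these rows does not remove a difference in quality between libraries. Such a difference cannot be told apart from the group here, and its part in the calls was not tested. The members lay among well covered promoters, with counts of 148 to 1995 per library. Counts are called fragments below, although whether the deposited table counts fragments or reads was not checked. The promoter of the targeted gene MORC2 held 403 fragments with sgRNA 1 and 639 with sgRNA 2, beside 247 in the first WT library and 267 in the second. A promoter count does not measure the edit, so this neither checks nor contradicts the label.

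TASOR had the largest fold change of the members. It held 441 fragments with sgRNA 1 and 678 with sgRNA 2, beside 285 in the first WT library and 267 in the second. After TMM scaling this was 40.4 and 39.8 CPM (counts scaled to a common library size) in KO and 29.6 in each WT library, so that the groups did not overlap. The KO mean of 40.1 ± 0.488 CPM was 1.35-fold the WT mean of 29.6 ± 0.0179 CPM (SD, n = 2 each). As a log2 fold change this rise was 0.44 (SE 0.084, 95% interval 0.27 to 0.60), and its adjusted p was 0.000124 by the quasi-likelihood test of edgeR with Benjamini-Hochberg adjustment. The 2 guides gave nearly the same size, 0.45 for sgRNA 1 and 0.43 for sgRNA 2 over the WT mean on the log2 scale. The guide sequences given in the study overlap almost fully, and both values use the same WT mean. This likeness is therefore not that of 2 independent target sites. The very small SD in WT is below what counting alone gives, 1.78 CPM for 1 library at this depth, and it is not a measure of precision.

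The rows on either side of TASOR in gene order did not pass the test. On the log2 scale CCDC66 differed by 0.11 (SE 0.073, adjusted p 0.380) and ARHGEF3 by 0.069 (SE 0.077, adjusted p 0.640). These neighbours were chosen after their values were seen, and neither held counts within 25% of those of TASOR in every library. No difference between TASOR and these rows was tested.

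TASOR2, which takes the place of TASOR in HUSH2, had no detectable difference. Its promoter held 488 fragments with sgRNA 1 and 824 with sgRNA 2, beside 480 in the first WT library and 386 in the second. The CPM values were 44.8 and 48.3 in KO and 49.8 and 42.8 in WT, so that both KO libraries lay between the WT libraries. The log2 fold change was 0.013, with a 95% interval of −0.13 to 0.16 (edgeR adjusted p 0.940). Loess offsets that remove the trend with abundance turned its sign, to −0.053.

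The sequences just upstream of these paralogues are shown because TASOR passed the test and TASOR2 did not. They are the 250 bases before the most upstream RefSeq start of each gene on GRCh38.p14, which is not the assembly of the alignment, printed 5′ to 3′ on the gene's strand. TASOR lies on the minus strand at chr3:56683266-56683515, and TASOR2 on the plus strand at chr10:5684588-5684837. Capitals mark matches, on either strand, to the motifs searched in all promoters.
TASOR: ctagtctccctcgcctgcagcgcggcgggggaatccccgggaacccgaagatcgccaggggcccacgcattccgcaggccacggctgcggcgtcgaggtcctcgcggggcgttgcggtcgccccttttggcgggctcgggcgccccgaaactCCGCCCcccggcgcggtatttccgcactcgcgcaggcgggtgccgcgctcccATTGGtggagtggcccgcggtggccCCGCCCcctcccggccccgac
TASOR2: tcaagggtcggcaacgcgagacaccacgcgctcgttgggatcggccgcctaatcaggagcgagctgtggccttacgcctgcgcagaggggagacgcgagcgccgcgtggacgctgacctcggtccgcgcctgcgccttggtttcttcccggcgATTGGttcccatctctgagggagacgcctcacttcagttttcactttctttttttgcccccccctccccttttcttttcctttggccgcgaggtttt

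Both stretches hold 1 CCAAT box, written as ATTGG on the opposite strand. The CCAAT letters occur in 33.8% of the 19083 promoters with a sequence. TASOR also holds 2 GC boxes (GGGCGG), which 51.6% of promoters hold, and TASOR2 holds none. TASOR is the richer in G and C, at 76.4% against 61.6%, and has 37 CpG sites against 26. The median promoter had 61.2% G and C and 16 CpG sites. A match is a description of letters and not a bound site.

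The ratio of TASOR to TASOR2 within a library does not depend on a scaling factor for the whole library. Loess offsets, which vary with abundance, can change this ratio. On the log2 scale it was −0.15 with sgRNA 1 and −0.28 with sgRNA 2, beside −0.75 in the first WT library and −0.53 in the second. Thus TASOR held 0.904 and 0.823 times the fragments of TASOR2 in the KO libraries, and 0.594 and 0.692 times in the WT libraries. The mean log2 ratio was 0.43 higher in KO, and the groups did not overlap. An exact permutation test of 2 against 2 gave a two-sided p of 0.33, the smallest that this design allows, and an adjusted p of 0.500 over the 3 paralogue pairs compared. From the fit over all promoters, the difference between the log2 fold changes of TASOR and TASOR2 was 0.42 (SE 0.11, 95% interval 0.20 to 0.64), a description that treats both estimates as independent.

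**Figure D1:**
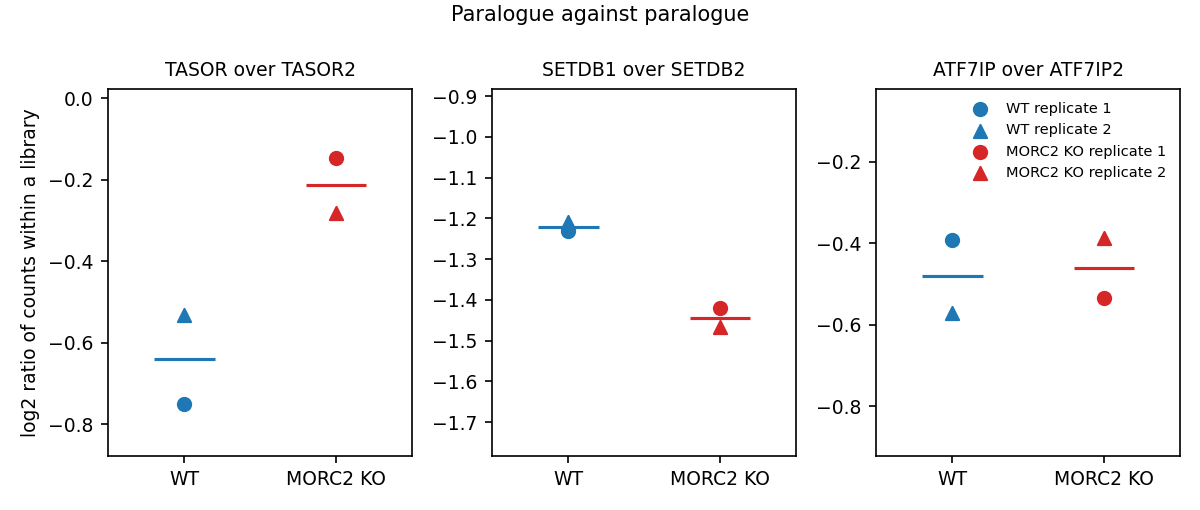
Log2 ratio of the promoter counts of each paralogue pair within a library (y axis), for WT (blue) and MORC2 KO (red). Circles are replicate 1, triangles replicate 2 and bars the group means of 2 libraries, and the y axes cover equal spans at different levels. The KO libraries lie 0.43 above WT for TASOR over TASOR2 and 0.22 below for SETDB1 over SETDB2, and overlap WT for ATF7IP over ATF7IP2.

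The other HUSH subunits had smaller differences. PPHLN1, the RNA-binding subunit, held 410 fragments with sgRNA 1 and 702 with sgRNA 2, beside 340 in the first WT library and 278 in the second. This was 37.6 and 41.2 CPM in KO against 35.3 and 30.8 CPM in WT. The groups did not overlap, although KO replicate 1 and WT replicate 1 were close. PPHLN1 rose by 0.26 on the log2 scale (SE 0.082, edgeR adjusted p 0.0394). The call was lost without WT replicate 2 (0.17, adjusted p 0.421) and without KO replicate 2 (0.19, adjusted p 0.542). It was kept without KO replicate 1 (0.33, adjusted p 0.0348) and without WT replicate 1 (0.37, adjusted p 0.0115). The row of ZCRB1, 2 rows away, differed from it by at most 0.294% in any library, so the counts cannot be assigned to PPHLN1 alone. PRICKLE1, on the other side, had counts within 16.8% of those of PPHLN1, a likeness that does not by itself show shared fragments.

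MPHOSPH8, the H3K9me3 reader, held 395 fragments with sgRNA 1 and 615 with sgRNA 2, beside 294 in the first WT library and 291 in the second. These were 36.2 and 36.1 CPM in KO and 30.5 and 32.2 CPM in WT. The groups did not overlap, and the log2 fold change was 0.20 (SE 0.085, 95% interval 0.038 to 0.37). The unadjusted p of 0.0159 became 0.142 after adjustment over all promoters in edgeR, so that MPHOSPH8 did not pass the test.

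Among the methyltransferases the paralogues also differed in value. SETDB2 belongs to the same family as SETDB1, and both have a methyl-CpG-binding domain in addition to a SET domain. The SETDB2 promoter held 1289 fragments with sgRNA 1 and 1995 with sgRNA 2, beside 1031 in the first WT library and 852 in the second. After scaling this was 118.2 and 117.0 CPM in KO against 107.1 and 94.4 CPM in WT. Again the groups did not overlap, and the WT libraries differed more from each other than the KO libraries did. SETDB2 rose 1.17-fold, a log2 fold change of 0.22 (SE 0.062, 95% interval 0.099 to 0.34), with an edgeR adjusted p of 0.0182. Without WT replicate 2 the log2 fold change was 0.13 (adjusted p 0.374). The call was also lost without KO replicate 1 (adjusted p 0.0585) and without KO replicate 2 (adjusted p 0.198), although the log2 fold changes there were 0.23 and 0.24. Without WT replicate 1 it was kept, at 0.32 (adjusted p 0.00154). The readthrough gene SETDB2-PHF11 held identical counts, and CAB39L differed by at most 0.194%, so the counts of these 3 rows cannot be told apart.

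SETDB1, the methyltransferase used by HUSH, had no detectable difference. It held 481 fragments with sgRNA 1 and 721 with sgRNA 2, beside 439 in the first WT library and 368 in the second. The CPM values of 44.1 and 42.3 in KO lay inside the WT range of 40.8 to 45.6. The log2 fold change was −0.0063, with a 95% interval of −0.15 to 0.14 (edgeR adjusted p 0.972), and it turned to 0.13 with total count scaling.

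The upstream stretches of SETDB1 and SETDB2 are shown because the paralogues differ in base composition. SETDB1 lies on the plus strand at chr1:150926013-150926262, and SETDB2 on the plus strand at chr13:49444024-49444273, both on GRCh38.p14 and printed in the same way.
SETDB1: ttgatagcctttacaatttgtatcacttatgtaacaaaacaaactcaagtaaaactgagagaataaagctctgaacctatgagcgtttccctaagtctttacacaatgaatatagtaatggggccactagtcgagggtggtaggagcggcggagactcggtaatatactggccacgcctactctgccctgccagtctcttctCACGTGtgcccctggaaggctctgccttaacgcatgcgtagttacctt
SETDB2: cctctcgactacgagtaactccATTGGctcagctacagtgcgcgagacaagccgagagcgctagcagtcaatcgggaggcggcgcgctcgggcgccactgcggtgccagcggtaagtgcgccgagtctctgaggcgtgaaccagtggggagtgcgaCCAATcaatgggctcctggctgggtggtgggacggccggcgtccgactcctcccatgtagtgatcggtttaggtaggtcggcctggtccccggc

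SETDB1 is the least rich in G and C of the 7 members with a sequence, at 46.0% with 9 CpG sites, against 65.2% and 25 CpG sites in SETDB2. SETDB1 holds 1 E-box (CACGTG), found in 7.29% of promoters. SETDB2 holds 2 CCAAT boxes, 1 on each strand. Of the other motifs searched, the ETS core (CCGGAA, 18% of promoters) was matched among members in PPHLN1 alone. TATAAA (9.54%), GCGCATGC of NRF1 (3.4%), AANATGGC of YY1 (3.82%) and the CRE letters TGACGTCA (2.13%) matched in 0 of the 7 members. None of the motifs is contained in another. ATF7IP2 and TRIM28 had no entry in the sequence table.

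The log2 ratio of SETDB1 to SETDB2 was −1.42 with sgRNA 1 and −1.47 with sgRNA 2, beside −1.23 in the first WT library and −1.21 in the second. The ratio was thus 0.22 lower in KO on the log2 scale, with no overlap between groups. The exact permutation p was again 0.33, adjusted to 0.500 over the 3 pairs. The fitted difference between log2 fold changes was −0.23 (SE 0.098, 95% interval −0.42 to −0.035).

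The ATF7IP pair moved less. ATF7IP, the cofactor that protects SETDB1, held 200 fragments with sgRNA 1 and 337 with sgRNA 2, beside 176 in the first WT library and 148 in the second. The CPM values of 18.3 and 19.8 in KO stood against 18.3 and 16.4 in WT, with KO replicate 1 above WT replicate 1 by less than the counting error. The log2 fold change was 0.14 (95% interval −0.075 to 0.36, edgeR adjusted p 0.480). ATF7IP2, its paralogue, held 290 fragments with sgRNA 1 and 441 with sgRNA 2, beside 231 in the first WT library and 220 in the second. This gave 26.6 and 25.9 CPM in KO and 24.0 and 24.4 CPM in WT, a log2 fold change of 0.11 (95% interval −0.075 to 0.30, adjusted p 0.519). The log2 ratio of ATF7IP to ATF7IP2 was −0.53 and −0.39 in KO and −0.39 and −0.57 in WT, so the groups overlapped. The difference of 0.020 had an exact permutation p of 0.667, adjusted to 0.667, and the fitted difference had a 95% interval of −0.26 to 0.32, which does not show that the paralogues act alike. EMP2, near ATF7IP2, had counts within 21.5% of it and a log2 fold change of −0.17.

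TRIM28, the corepressor of KRAB zinc finger proteins, held 511 fragments with sgRNA 1 and 829 with sgRNA 2, beside 449 in the first WT library and 460 in the second. Its 46.9 and 48.6 CPM in KO lay between the 46.6 and 50.9 CPM of WT. The log2 fold change was −0.026 (95% interval −0.17 to 0.12, edgeR adjusted p 0.872), and it turned to 0.11 with total count scaling. Of the nearby rows, ZNF446 and ZBTB45 had counts within 6.85% and 13.5% of those of TRIM28. They were not equal to it in the way the rows of ZCRB1 or CAB39L were to theirs, and likeness of counts alone does not show shared fragments.

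Over the 9 members, 3 were called higher and 0 lower, where 4.45% of all tested promoters were called, 3.45% higher and 0.995% lower. At an adjusted p under 0.1 the members called were still 3, against 8.13% of all promoters. The 3 were TASOR, PPHLN1 and SETDB2, and 4 of the 9 had an unadjusted p under 0.05, against 20.3% of all promoters. Every KO library exceeded every WT library at 6 members, which holds for 25.2% of all promoters, and the reverse held at 0 members and 25.4% of all promoters. Non-overlap in either direction thus held for 50.6% of all promoters. The median log2 fold change was 0.14 over the members and −0.017 over all promoters. Abundance moved with the fold change across promoters. In the abundance classes (10 of equal size) that hold the members, the median was 0.028 to 0.083 and the share called higher was 2.35% to 11.5%. With loess offsets, which remove this trend, TASOR differed by 0.38 on the log2 scale (adjusted p 0.00331), while PPHLN1 had 0.20 (adjusted p 0.235) and SETDB2 0.13 (adjusted p 0.231).

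**Figure D2:**
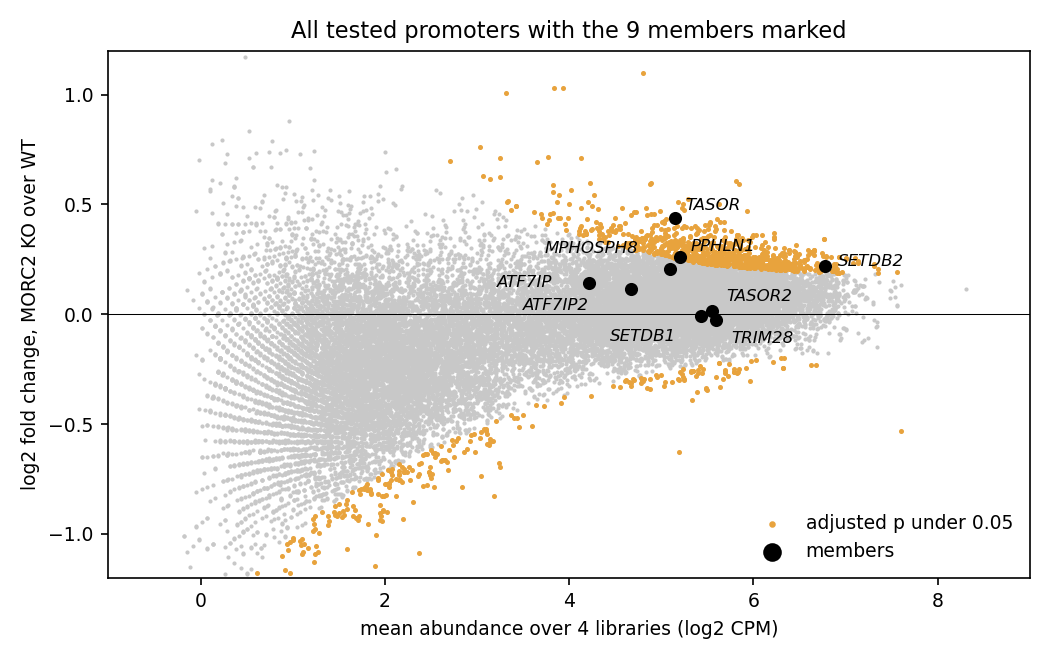
Log2 fold change of MORC2 KO over WT (y axis) against mean abundance in log2 CPM (x axis) for the tested promoters, with called promoters in orange and the 9 members in black. TASOR lies at 0.44 and PPHLN1 and SETDB2 at 0.26 and 0.22, and 74 promoters fall outside the axes.

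TASOR was thus the member whose call held most widely. It was called in 14 of 16 alternative fits, including each of the 4 that left out a library, with log2 fold changes from 0.38 to 0.57. The exceptions were total count scaling (0.57, adjusted p 0.211) and the DESeq2 Wald test (0.44, adjusted p 0.278), which called 20 and 7 of all promoters (0.0723% and 0.0253%). The share of all promoters called was 1.37% with loess offsets, 2.77% with the replicate block, 3.01% in the edgeR 4 fit, 2.59% with limma-trend and 2.36% with thinned counts. It was 4.63% with DESeq2 size factors, 4.38% with no filter, 3.97% at a mean count of at least 50, 4.56% with the robust fit and 4.5% without mitochondrial rows. Leaving out KO replicate 1 or 2 gave 3.1% or 0.148%, and leaving out WT replicate 1 or 2 gave 5.89% or 0.827%. PPHLN1 was called in 6 and SETDB2 in 8 of the 16, and the other 6 members in 0.

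**Figure D3:**
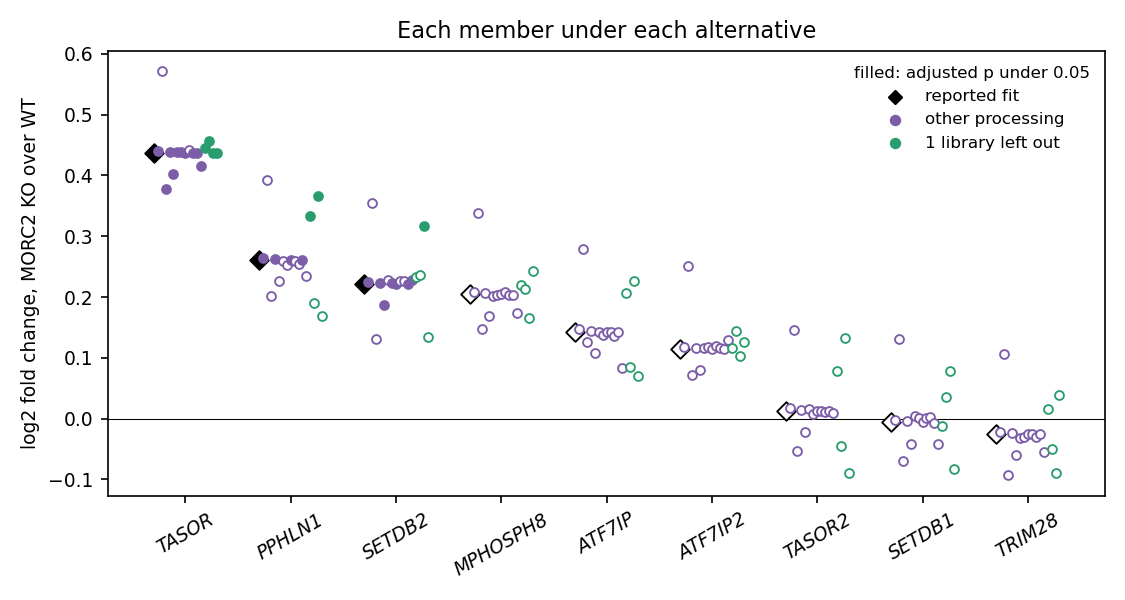
Log2 fold change of MORC2 KO over WT (y axis) for each member, with the reported fit as a black diamond, 12 other ways of processing in purple and 4 fits without 1 library in green. Filled symbols passed an adjusted p of 0.05. TASOR stays between 0.38 and 0.57, and TASOR2, SETDB1 and TRIM28 scatter around 0.

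In WT cells all 9 promoters were accessible above the median promoter, from the 50.7th to the 98.7th percentile of tested promoters. The levels compare windows that the study describes as equal in length. SETDB2 was highest, at 100.7 ± 8.98 CPM, and stood clear of the next. TRIM28 (48.8 ± 3.05), TASOR2 (46.3 ± 5.02) and SETDB1 (43.2 ± 3.42) followed, each overlapping its neighbour in this order. PPHLN1 (33.05 ± 3.195), MPHOSPH8 (31.4 ± 1.201) and TASOR (29.6 ± 0.0179) formed the next group. PPHLN1 and MPHOSPH8 differed by 1.67 CPM, and MPHOSPH8 and TASOR by 1.80 CPM, both less than the counting SD of 1.83 CPM of MPHOSPH8 in 1 library. ATF7IP2 (24.2 ± 0.267) and ATF7IP (17.3 ± 1.33) were lowest, and their WT libraries did not overlap with each other or with those of TASOR (SD, n = 2 each). In KO, the mean of TASOR ranked 5 instead of 7, ahead of MPHOSPH8 and PPHLN1, and its KO libraries lay within the range of those of PPHLN1.

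**Figure D4:**
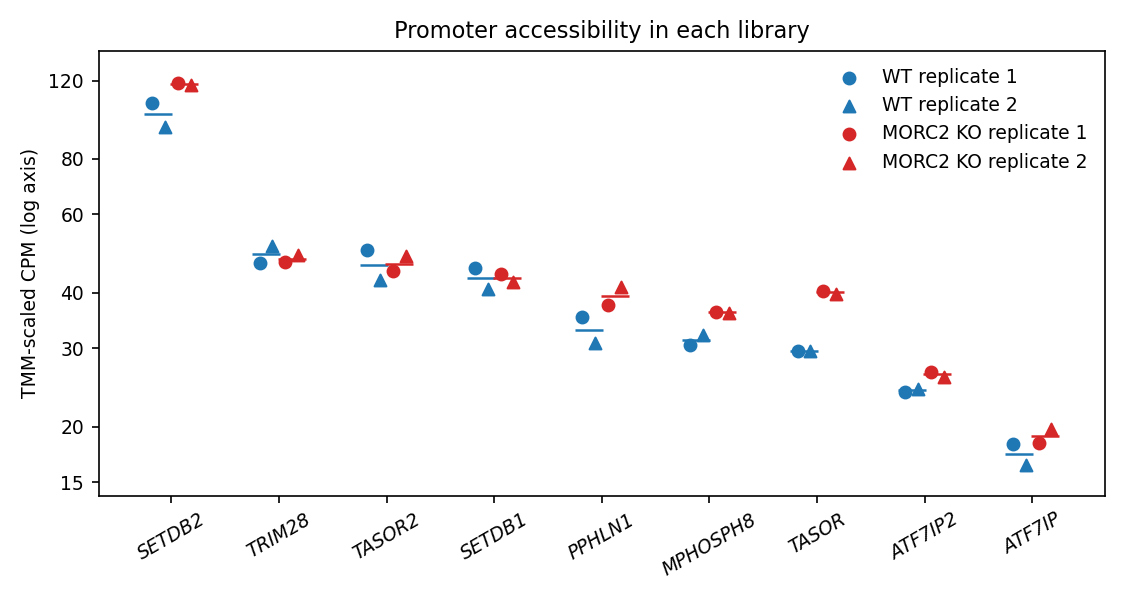
TMM-scaled CPM on a log axis (y axis) for the 9 members, ordered by their WT mean. Blue marks WT and red MORC2 KO, circles replicate 1 and triangles replicate 2, and bars the means of 2 libraries. TASOR rises from 29.6 to 40.1 CPM with no overlap, while TRIM28, TASOR2 and SETDB1 overlap between groups.

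Other genes of the pathway were described beside the members as a list of 23, all of which were tested. The list held HUSH cofactors, the nuclear exosome targeting complex, HP1 proteins, other H3K9 methyltransferases, H3K9 demethylases, and paralogues and partners of TRIM28 and ATF7IP. Of the 23, 1 was called higher and 0 lower, against 4.45% of all promoters. The 1 was MORC2 itself, higher by 0.43 on the log2 scale (SE 0.087, edgeR adjusted p 0.000279). The other 22 had a median of 0.036 and a range of −0.14 to 0.24.

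Of the 3 HP1 proteins, which bind H3K9me3, 0 were called: CBX1 had 0.24 (SE 0.078, adjusted p 0.0508), CBX5 had 0.10 (SE 0.062, adjusted p 0.341) and CBX3 had −0.080 (adjusted p 0.509). Of the 3 paralogues of TRIM28, 0 were called. TRIM33 had 0.21 (SE 0.068, adjusted p 0.0533), while TRIM24 and TRIM66 had −0.0081 and −0.0053. IRF2, a transcription factor linked to the TASOR2 complex, had 0.21 (SE 0.082, adjusted p 0.119). The 4 other H3K9 methyltransferases SUV39H1, SUV39H2, EHMT1 and EHMT2 ranged from −0.13 to 0.073, and the 3 members of the exosome targeting complex, MTREX, ZCCHC8 and RBM7, from 0.045 to 0.13. CBX1, TRIM33, IRF2 and the other uncalled genes named here besides CBX5 were chosen after their values were seen, and none of them passed the test in the reported fit.

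**Figure D5:**
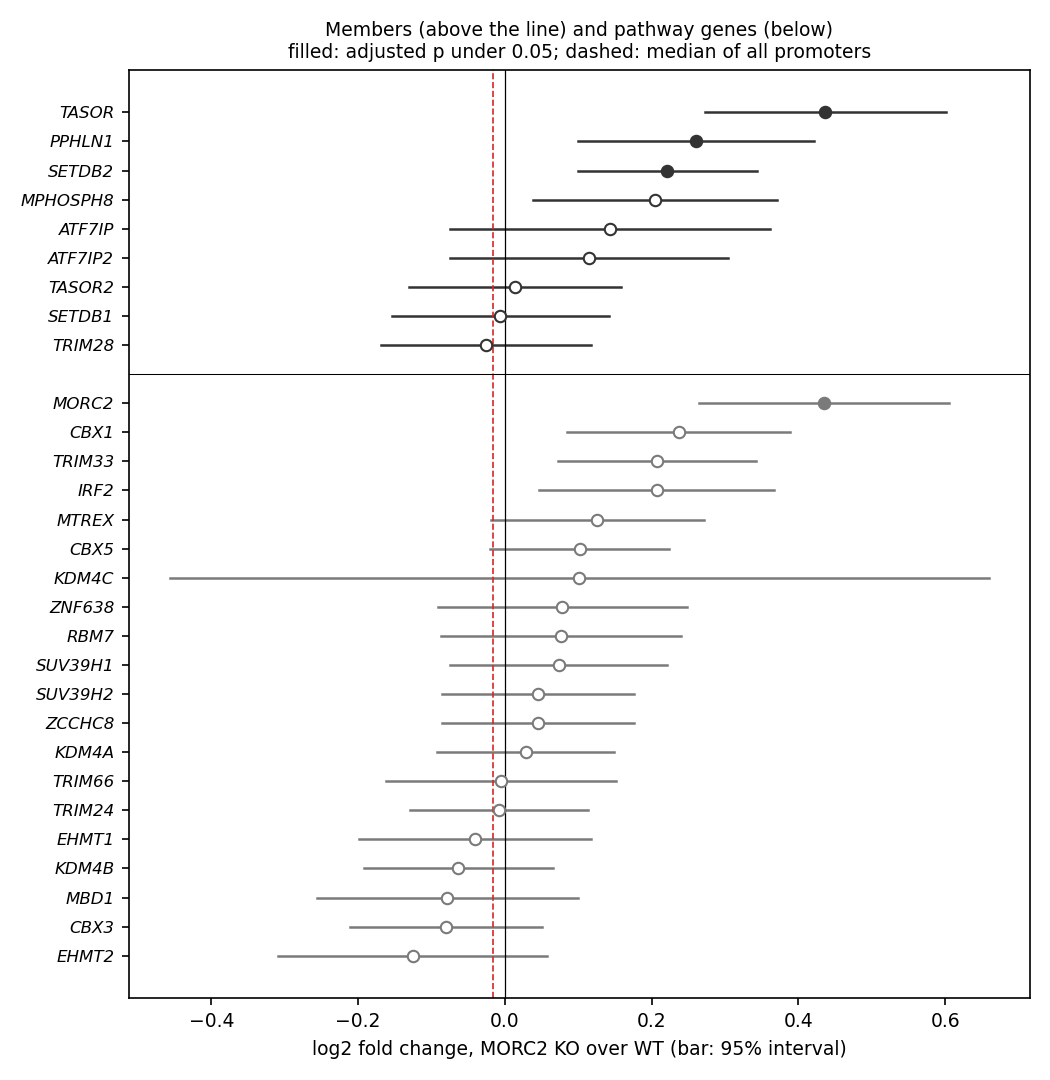
Log2 fold change of MORC2 KO over WT (x axis) with its 95% interval for the 9 members above the line and 20 of the 23 pathway genes below it. Filled symbols passed an adjusted p of 0.05, and the dashed line is the median of all promoters at −0.017. TASOR and MORC2, at 0.44 and 0.43, lie furthest to the right.

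The promoters most like TASOR over the 4 libraries were MIR4322, CLGN and DLGAP1-AS1. Likeness was the root mean square distance of log2 CPM centred on each promoter, which was 0.0038, 0.019 and 0.020. CLGN, a chaperone of the endoplasmic reticulum best known from testis, was higher by 0.42 on the log2 scale (edgeR adjusted p 1.42e-05), DLGAP1-AS1, an antisense RNA whose promoter fragments carry no strand, by 0.40 (0.0223), and MIR4322, at 0.44, did not pass (0.126). With 4 libraries this measure mainly finds promoters with a similar fold change and close replicates.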

How the data were processed

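ATAC-seq was performed by the authors on 2 WT and 2 MORC2 KO HEK293T libraries. Per the labels and the study's methods, reads were trimmed, aligned with Bowtie2 to T2T-CHM13, filtered for properly paired, well mapping, unduplicated reads (Picard) and summarised per promoter, described as a 2 kb window around each gene start. The deposited table holds raw, unnormalised counts for each NCBI Gene ID. Which counter made it is not given in the sources used here, and its windows were not checked. Tn5 offsets were not applied here. The deposited peak list is on T2T-CHM13, for which no gene positions were used, so it was not used here. The adenoviral and SV40 genes that mark HEK293T cells are no rows of a human promoter table, so the line was not checked.

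Symbols for 28763 of 28775 Gene IDs, gene order and promoter sequences came from RefSeq tables on GRCh38.p14. Sequences matched 7 of the 9 members. MORC2 KO was compared with WT in edgeR 4.0.16 (R 4.3.3): filterByExpr, TMM, quasi-likelihood F-test with the legacy fit and no covariates. Benjamini-Hochberg adjustment ran over 27647 promoters, with calls at an adjusted p under 0.05. The study tested smaller windows, summarised them per promoter and reports far fewer differentially accessible genes between KO and WT. Its calls and those given here are thus not the same measure. Standard errors and intervals were derived from the F statistics. CPM values refer to all tested promoters, mitochondrial rows included. A pseudocount of 0.5 was added to each count in the paralogue ratios, which were compared by exact permutation. Rows up to 3 places from a member were compared with it, and counts within 1% in every library were read as not separable. The fits with TMM, loess offsets and DESeq2 size factors were run on simulated counts. These had the same dispersion for all promoters and no trend with abundance, so they cannot test how such a trend affects the calls. With 2 libraries a group, edgeR p-values, standard errors and intervals drew mainly on a dispersion pooled over the tested promoters. The spread between a promoter's own libraries entered little, and the values describe these libraries alone. Alternatives were other scalings, filters, fits and tools (DESeq2 1.42.0, limma 3.58.1), thinning and leaving out libraries.

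The members, lists and tests were chosen with earlier results of these data known. The named genes were all 9 members, MORC2, CBX5 and any called gene of the pathway list, rows with counts within 25% of a neighbouring member, and the 3 promoters nearest to TASOR in pattern. An item of the pathway list is not reported here by name.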

Additional observations from a re-analysis of the deposited data

How the results depend on the processing

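Scaling by total counts left 0 of the 3 member calls, with 4 members under an unadjusted p of 0.05. The DESeq2 Wald test left 0 as well, with 3 under that p, and the count was 1 each with loess offsets, limma-trend and the replicate block. Leaving out 1 library at a time gave 1 to 3, and it was 1 without KO replicate 2 and 1 without WT replicate 2. TASOR was the member that passed wherever the count was 1. The cause was not tested, except that a fit without a library has fewer samples, in which the lone library of a group is assumed to vary like the other group. The pathway count of 1 became 0 when scaled by total counts (4 genes under an unadjusted p of 0.05), 0 by DESeq2 (2 genes under it), 3 with DESeq2 size factors, 2 with the robust fit, and 0 to 4 leaving out single libraries, 0 being without KO replicate 2 and 4 without KO replicate 1.

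The 1229 calls over all promoters (954 higher, 275 lower) became 20 with total count scaling (19 higher), 7 with DESeq2 (7 higher, and 1426 at an unadjusted p under 0.05), 379 with loess offsets (211 higher, 168 lower), 717 with limma-trend, 787 at a mean count of at least 50, 648 with thinned counts, 765 with the replicate block and 2249 at an adjusted p under 0.1. They ranged from 41 without KO replicate 2 to 1637 without WT replicate 1, with 230 without WT replicate 2. Total count scaling moved the median of all promoters by 0.14 on the log2 scale. The replicate numbers do not pair the libraries: deviations of same-numbered libraries correlated at −0.00027. Under the replicate block PPHLN1 (adjusted p 0.0714) and SETDB2 (adjusted p 0.0501) were not called. The paralogue differences were the same by construction, since the mean of same-numbered differences equals the difference of the group means.

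Signs turned for members near 0. The log2 fold change of SETDB1 was 0.0037 under the block, 0.0017 by DESeq2, 0.0026 by limma-trend, 0.00026 by edgeR 4 and 0.13 scaled by total counts, and ran from −0.083 to 0.079 over fits lacking 1 library. TASOR2 was −0.053 with loess offsets, −0.021 at a mean count of at least 50, and −0.089 to 0.13 over fits lacking 1 library. For TRIM28 the values were 0.11 scaled by total counts and −0.089 to 0.039 over fits lacking 1 library. The ratio of ATF7IP to ATF7IP2, 0.020, was −0.043 with thinned counts and −0.070 to 0.11 over fits lacking 1 library. Those of TASOR to TASOR2 (0.32 to 0.54) and of SETDB1 to SETDB2 (−0.27 to −0.20) kept their sign in all alternatives run. For these pairs the groups did not overlap, so leaving out 1 library could not turn the sign. The replicate block could not turn it either, since it gives the same difference by construction. Of the other fold changes of named promoters under an alternative, 166 kept direction and side of the threshold, 23 lost the call and 5 gained it. WT levels stayed within 1 SD in 32 of 45 comparisons. Leaving out mitochondrial rows moved every member, since CPM then refers to fewer counts, as for TASOR from 29.6 to 42.5 CPM. The SD of TASOR is below counting error, so its moves by this rule say little. Precision is limited by 2 libraries a group, and at this depth the SE of a member's log2 fold change was 0.062 to 0.11.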

Other observations

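Base composition moved with the fold change across promoters. Over 19083 promoters with an upstream sequence, which are not independent replicates, Spearman's rho between G and C content and log2 fold change was 0.25. In 10 classes of equal size by G and C content the median log2 fold change was −0.18 in the lowest and 0.021 in the highest, with the largest value, 0.041, in class 7 counted from the lowest. TASOR fell in the highest class and had 0.44. PPHLN1, MPHOSPH8 and SETDB2 fell in class 7. ATF7IP, in class 4 with a median of −0.0054, had 0.14. SETDB1 fell in class 2, where the median was −0.14, and had −0.0063. TASOR2, in class 6 with a median of 0.026, had 0.013. The part of base composition in the members' values was not tested.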
